A study of Saccharomyces cerevisiae with 6 samples.

Results

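At 332 genes of *Saccharomyces cerevisiae* the H3K4me3 peak reached more than 150 bp further in the gene's direction in *jhd2∆* than in WT cells. These genes were chosen by that measure itself, from 4508 genes that have a systematic open reading frame name and exactly 1 peak in each of the deposited peak lists, out of 4970 genes with a peak in either list. The strand in the systematic name (W for Watson, C for Crick) gave the direction of the gene. The downstream shift is the distance by which the downstream peak edge lay further in that direction in *jhd2∆*. Gene coordinates were not used, so an edge called further in was not checked to lie inside the gene. The *jhd2∆* strain MSY724 and the WT strain MSY723 share the BY4742 background and the mating type given as Mat a. The paper's strain list instead gives both as MATα, and as prototrophic. Both were grown to an optical density of 0.5 in YAR medium, which supplies raffinose for carbon and ammonium sulfate for nitrogen. One H3K4me3 library per genotype was used, of about 14000000 single-end reads of 51 bp by the labels. The libraries of pan-H3 and of whole cell lysate were not analysed here.

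Trimethylation of lysine 4 of histone H3 is deposited by Set1 within the COMPASS complex, which travels with RNA polymerase II early in transcription, so that the mark sits over the start of active genes and gives way further along the gene to the dimethylated and then the monomethylated form. Jhd2, a demethylase of the JmjC family, takes methyl groups off the same lysine. The downstream edge of an H3K4me3 peak thus lies toward the gene body, and the upstream edge toward the promoter.

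With 1 library per genotype there is no replicate against which a shift could be set, so no test was made, and the values are descriptions of these libraries. The selected genes are 7.36% of the eligible genes, and nothing is read from that share, since the limit of 150 bp sets it. Over all 4508 eligible genes the downstream edge lay a median of 29 bp further in (quartiles 3 and 69 bp), so the selected genes are the upper end of a distribution whose lower quartile was already above 0. A shift of more than 150 bp in the opposite direction was found at 7 genes (0.155%). As a check of the labels, the deleted gene *JHD2* has 1 peak in the WT list and 0 in the *jhd2∆* list. The lists give the position, breadth and pileup of each peak, and the pileup is the height of the read coverage that MACS2 recorded. Pileup was ranked only within a list, because the scaling between the lists is not given in the sources used here.

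Among the 332 genes the downstream shift had a median of 197 bp (quartiles 167 and 274 bp) and ranged from 151 to 1000 bp. Peak breadth had a median of 865.5 bp in *jhd2∆* and 653 bp in WT. Most of these genes lay close to the limit: 171 had a shift from 151 to 200 bp, 93 from 201 to 300 bp, 32 from 301 to 400 bp and 36 above 400 bp. Just inside the limit, with 151 bp each, were *DBP7* and *NOP7* (both ribosome assembly factors), *RAD2* (a nuclease of nucleotide excision repair), *SAC1* (a phosphoinositide phosphatase) and *VTH1*. Just outside it, with 150 bp each, were *MNN2*, *NSE1*, *PAB1* (the poly(A)-binding protein), *SKY1* and YJL114W. A shift of 151 to 160 bp was found at 59 genes and one of 141 to 150 bp at 45 genes, so the limit does not fall in a gap between values.

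**Figure D1:**
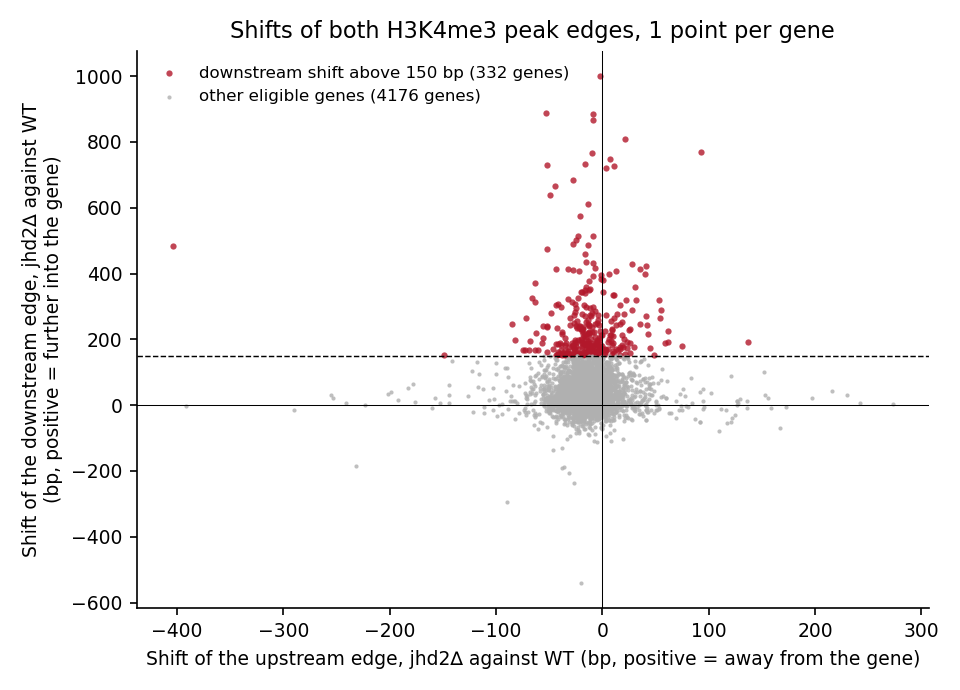
Shift of the downstream edge (vertical axis, bp) against shift of the upstream edge (horizontal axis, bp) in *jhd2∆* relative to WT, 1 point per gene, for the 332 genes above the limit of 150 bp (red, dashed line) and the 4176 other eligible genes (grey). The red points spread up to 1000 bp along the vertical axis while most of them stay close to 0 on the horizontal axis.

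At most of these genes the downstream edge alone moved by more than 30 bp. The upstream edge, which the selection did not use, lay within 30 bp of its WT position at 249 of the 332 genes (75%), and at 3401 of the 4176 other eligible genes (81.4%). Its median shift was -13 bp, that is toward the gene, at the selected genes and also -13 bp at the others. It lay further out at 79 of the 332 genes (23.8%), against 17.9% of all eligible genes. The difference in breadth is by definition the sum of the downstream and the outward upstream shift. It had a median of 192 bp and a range of 4 to 998 bp. The peak was wider by more than 150 bp at 257 of the 332 genes (77.4%), and at 6.41% of all eligible genes. Below, a large extension means a downstream shift above 150 bp, whatever the difference in breadth.

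The upstream edge was more than 30 bp away at the other 83 genes (25%), against 775 of the 4176 other eligible genes (18.6%). *SCW10*, which encodes a cell wall glucanase-like protein, was extended on both sides, by 137 bp upstream and 191 bp downstream, and its peak covered 871 bp in *jhd2∆* and 543 bp in WT. *QDR1* (a multidrug transporter), *SDD1*, *NMD5* (a karyopherin) and *PRM5* followed with upstream edges 93, 75, 62 and 62 bp further out. In the other direction, the peak of *MEP2* (an ammonium permease) was displaced along the gene, with the upstream edge 149 bp and the downstream edge 153 bp further in, and its breadth was 1072 bp in *jhd2∆* and 1068 bp in WT. *DSE4*, *SPR6* and *DCS1* had upstream edges 85, 82 and 75 bp further in. *APJ1*, a chaperone of the Hsp40 type, has the only pair of peaks that do not overlap: the *jhd2∆* peak runs from 481682 to 482016 on chromosome XIV and the WT peak from 481278 to 481532, so its downstream shift of 484 bp compares separate calls and is no extension of 1 peak.

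The 20 genes with the largest downstream shifts ran from 501 to 1000 bp. Their peaks covered 1024 to 1792 bp in *jhd2∆* (median 1412 bp) and 422 to 1301 bp in WT (median 734 bp). In 16 of the 20 genes the *jhd2∆* peak was broader than the broadest WT peak among them. The upstream edge lay within 30 bp of its WT position in 15 of the 20 and between -53 and 93 bp overall. The breadth equalled a median of 101.2% of the gene length in *jhd2∆* and 54.0% in WT, so that the *jhd2∆* peaks were about as long as the genes.

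**Figure D2:**
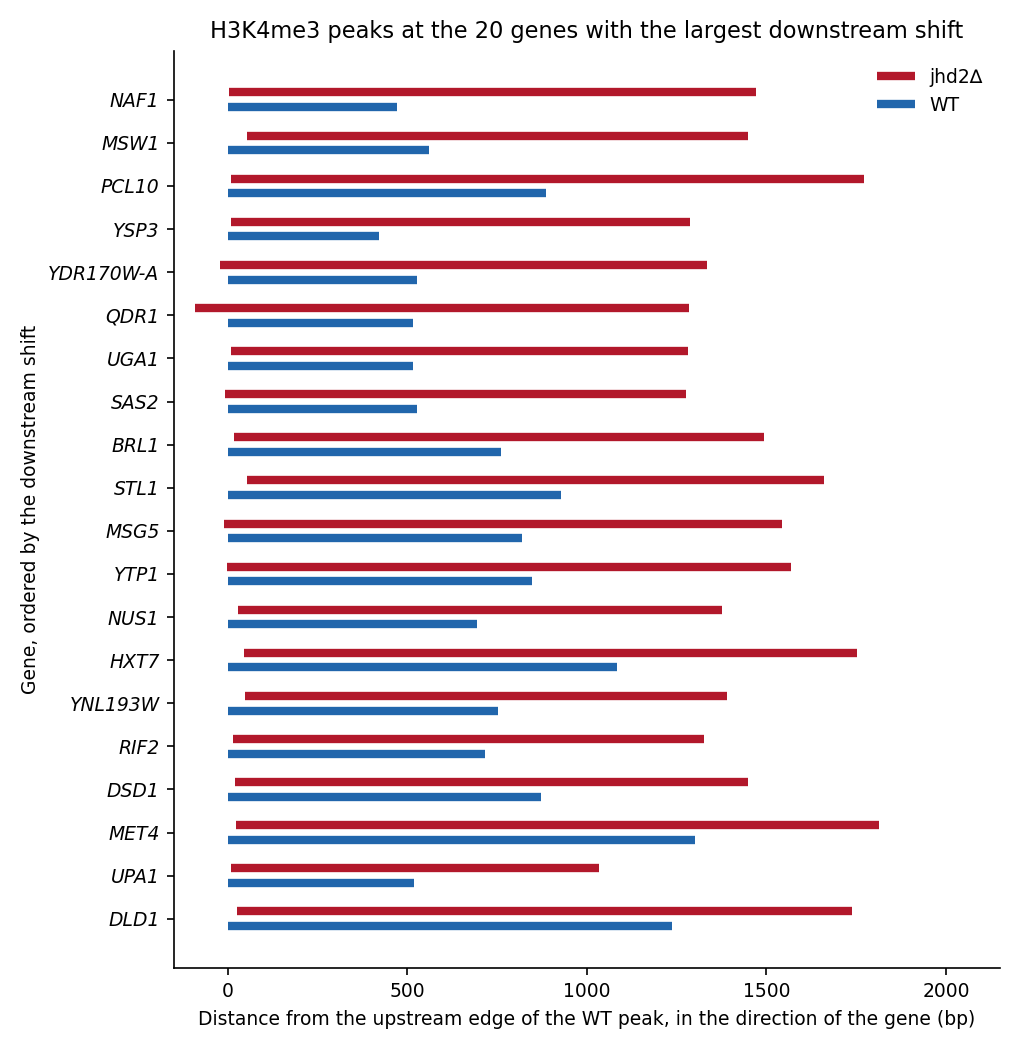
H3K4me3 peaks at the 20 genes with the largest downstream shift, drawn as bars from upstream to downstream edge in *jhd2∆* (red, above) and WT (blue, below), as distance in bp from the upstream edge of the WT peak in the direction of the gene. The bars of a gene start within 93 bp of each other, and the *jhd2∆* bars end 501 to 1000 bp further along.

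*NAF1*, whose product assembles box H/ACA small nucleolar ribonucleoproteins, had the largest shift. Its peak ran from 392831 to 394298 on chromosome XIV in *jhd2∆* (1468 bp) and from 392829 to 393298 in WT (470 bp). The upstream edges were 2 bp apart and the downstream edges 1000 bp apart, and the breadth lay at the 99.1st percentile of eligible genes in *jhd2∆* and at the 13.2nd in WT. *MSW1*, the mitochondrial tryptophanyl-tRNA synthetase, followed with 1397 bp in *jhd2∆* (1003939 to 1005335 on chromosome IV) and 561 bp in WT (1003886 to 1004446), a downstream shift of 889 bp. *PCL10*, a cyclin of the Pho85 kinase, had 1764 bp in *jhd2∆* and 887 bp in WT.

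Several regulators and transporters stood among the largest shifts. *SAS2*, the catalytic subunit of an acetyltransferase of histone H4, had a peak of 1282 bp in *jhd2∆* (522186 to 523467 on chromosome XIII) and 527 bp in WT (522934 to 523460), with a downstream shift of 748 bp and an upstream shift of 7 bp. *STL1*, a glycerol symporter, had 1608 bp in *jhd2∆* and 929 bp in WT, and *QDR1* had 1378 bp in *jhd2∆* and 515 bp in WT. *MSG5*, a phosphatase of mitogen-activated protein kinases, had 1555 bp in *jhd2∆* and 818 bp in WT. *RIF2*, which binds telomeres with Rap1, had 1313 bp in *jhd2∆* and 715 bp in WT. *MET4*, the activator of sulfur amino acid genes, had the broadest *jhd2∆* peak of all eligible genes, 1792 bp against 1301 bp in WT, with a shift of 514 bp.

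Metabolic enzymes made up a further part of the 20. *UGA1*, the transaminase of 4-aminobutyrate, had 1273 bp in *jhd2∆* and 516 bp in WT. *DSD1*, a D-serine dehydratase, had 1427 bp in *jhd2∆* and 872 bp in WT, and *DLD1*, a mitochondrial D-lactate dehydrogenase, had 1713 bp in *jhd2∆* and 1237 bp in WT. *NUS1*, a subunit of the enzyme that makes dolichol chains, had 1349 bp in *jhd2∆* and 694 bp in WT. The remaining genes of the 20 were *YSP3* (a subtilisin-type protease), *BRL1* (a nuclear envelope protein), *HXT7*, *YTP1*, *UPA1*, YDR170W-A and YNL193W, with shifts of 865, 733, 666, 720, 514, 809 and 638 bp.

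The peaks keep the running numbers of the original MACS2 call, in which calls without a gene also have a number, so the number of calls downstream of a gene's peak can be counted. Counted up to the next pair of listed peaks that overlap each other in both lists, the calls were fewer in *jhd2∆* than in WT at 20 of the 328 selected genes with such a pair (6.10%), against 1.2% of all eligible genes. They were more in *jhd2∆* at 19 of the 328 (5.79%), against 5.61% of all eligible genes. Of the 20 genes with fewer calls, 14 had a shift above 400 bp and 6 had 155 to 281 bp. Above 400 bp genes with fewer calls were 14 of 34 (41.2%), from 301 to 400 bp 0 of 31, from 201 to 300 bp 4 of 93 (4.30%) and from 151 to 200 bp 2 of 170 (1.18%). Of the 20 genes with the largest shifts, 13 had fewer calls in *jhd2∆*. In 12 of the 16 genes with a shift above 600 bp there was exactly 1 call fewer, and for *NAF1*, *MSW1*, *PCL10*, *YSP3* and *UGA1* the counts were 0 in *jhd2∆* and 1 in WT. *SAS2*, *STL1* and *YTP1* had 1 call in each library, and YNL193W, *DSD1*, *MET4* and *DLD1* had 0 in each, with shifts of 501 to 748 bp.

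The numbers do not give the position of a call that is not listed, and the part of these calls in the shifts was not tested. Without the 20 genes, 312 remained with a median shift of 192.5 bp, an alternative chosen after seeing the data. The 20 genes themselves had a median shift of 674.5 bp (quartiles 272.25 and 779.75 bp). No *jhd2∆* peak of the 332 genes overlapped more than 1 listed WT peak. The same held for all 4508 eligible genes (0%), so this does not set the selected genes apart.

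**Figure D3:**
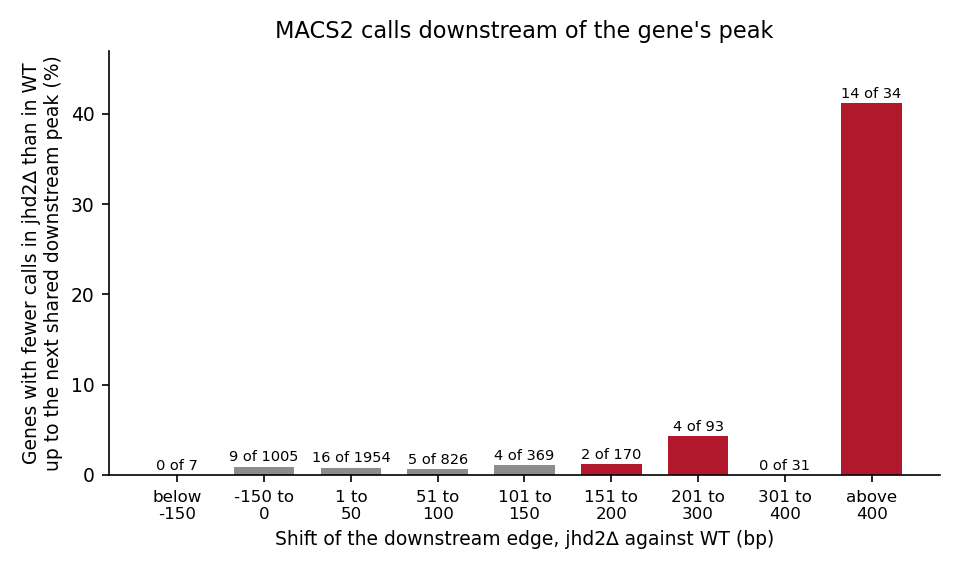
Percent of genes with fewer MACS2 calls in *jhd2∆* than in WT between the gene's peak and the next downstream peak shared by both lists (vertical axis), by class of downstream shift in bp (horizontal axis), with the numbers of genes above the bars. The selected genes are red: the share is 41.2% above 400 bp and at most 4.30% in each other class.

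Some of the 332 genes have a near-identical copy, from which short reads cannot always be told apart, so that their peaks are uncertain. *HXT7* and *HXT6*, neighbouring hexose transporter genes of nearly the same sequence, had opposite values. The *HXT7* peak covered 1706 bp in *jhd2∆* and 1085 bp in WT, with a downstream shift of 666 bp. The *HXT6* peak covered 465 bp in *jhd2∆* and 1024 bp in WT, with a shift of -539 bp, the largest retraction of all eligible genes. The telomeric helicase genes *YRF1-3*, *YRF1-7* and *YRF1-6* had shifts of 422, 409 and 398 bp, and *YRF1-4*, of the same family, had 48 bp and was not selected. YDR170W-A, a gag gene of a Ty retrotransposon, also belongs to a repeated family. For the gene pairs of elongation factor 2 and of the vacuolar sorting receptors both copies were selected: *EFT1* and *EFT2* had shifts of 297 and 249 bp, and *VTH2* and *VTH1* had 166 and 151 bp. For the genes of initiation factor eIF4A, *TIF1* had 154 bp and *TIF2* 31 bp, and for the maltases *MAL32* had 158 bp and *MAL12* 79 bp. *PHO11* had 155 bp, while its copy *PHO12* has a peak in the WT list only and could not be compared.

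Among paralogues that are less alike, both genes were selected in some pairs and 1 in others. Both genes of the phosphofructokinase subunits were selected, with 352 bp at *PFK2* and 264 bp at *PFK1*, as were the G1 cyclin genes *CLN2* (244 bp) and *CLN1* (173 bp), the transsulfuration genes *STR3* (171 bp) and *STR2* (155 bp) and the cell wall genes *SCW10* (191 bp) and *SCW4* (157 bp). *CIT2*, the peroxisomal citrate synthase of the glyoxylate cycle, had a peak of 580 bp in *jhd2∆* and 237 bp in WT and a shift of 321 bp, while *CIT1*, its mitochondrial counterpart, had 798 bp in *jhd2∆* and 895 bp in WT and a shift of -53 bp. *PYC2* and *PYC1*, the pyruvate carboxylase genes, had shifts of 324 and -28 bp. *ENO1* and *ENO2*, the enolase genes, had 205 and 11 bp, and *CDC19* and *PYK2*, the pyruvate kinase genes, had 241 and 37 bp. Of the ammonium permease genes, *MEP3* had 245 bp, *MEP2* 153 bp and *MEP1* 1 bp.

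In WT the peaks of the selected genes were low, with a median pileup percentile of 31.6 among all eligible genes. Their WT breadth had a median percentile of 48.6, but narrow and broad peaks were both more frequent among them than peaks of middle breadth. The pileup was 265 in *jhd2∆* and 288 in WT at the selected genes, against 273 in *jhd2∆* and 302 in WT over all eligible genes (medians). The scaling between the lists is unknown, so these values compare genes within a list only. The share of genes with a large extension was 13.4% among the 20% of eligible genes with the lowest WT pileup and 8.53%, 6.15%, 4.57% and 4.18% in the successive groups of 20% above them. Ranked by the pileup in *jhd2∆*, the shares were 11.8%, 8.0%, 6.09%, 5.88% and 5.03% from the lowest to the highest group. The part of peak height in the shifts was not tested. The selection used the same WT peak whose edge and pileup are described here.

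The order by pileup also held large extensions at high peaks. *ATP2*, the beta subunit of the mitochondrial ATP synthase, had the highest WT pileup of the selected genes, at the 99.9th percentile, and *COR1*, a core subunit of respiratory complex III, came next. The *ATP2* peak covered 1356 bp in *jhd2∆* (647399 to 648754 on chromosome X) and 1144 bp in WT (647398 to 648541), with the upstream edge 1 bp and the downstream edge 213 bp away from its WT position. *COR1* had 1215 bp in *jhd2∆* and 1044 bp in WT. *CYC8*, a general corepressor, *EFT2* and *TIF1* completed the 5 genes with the highest WT pileup, with shifts of 154, 249 and 154 bp. At the other end, *AXL2*, a membrane protein of bud site selection chosen here after its values were seen, had the lowest WT pileup of the selected genes. Its pileup percentile was 0.399 in *jhd2∆* and 0.0333 in WT, and its shift was 428 bp. The *AXL2* peak is assigned to more than 1 gene, so the shift may not belong to *AXL2* alone. Such peaks were found at 10 of the 332 selected genes (3.01%) and at 7.19% of all eligible genes.

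By WT breadth the share of genes with a large extension was 9.80% in the narrowest 20%, 6.48%, 5.93% and 5.51% in the middle groups and 9.05% in the broadest 20%. Short genes were rarely selected: the share was 0.668% among the 20% of genes up to 690 bp long, then 7.54%, 12.4%, 9.2% and 6.99% in the groups of longer genes. The median length of the selected genes was 1380.5 bp, against 1250 bp over all eligible genes. The longest were *BEM2*, a GTPase-activating protein of cell polarity (6503 bp, shift 234 bp), *YRF1-3*, *YRF1-6*, *YRF1-7* and *UBR2* (5618 bp, shift 153 bp). The shortest were YBR051W (350 bp, shift 166 bp), *TCA17* (458 bp, shift 180 bp), *RPN13*, a proteasome subunit (470 bp, shift 154 bp), *SPR6* (575 bp, shift 197 bp) and *NOP19*, a ribosome assembly factor (590 bp, shift 418 bp).

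**Figure D4:**
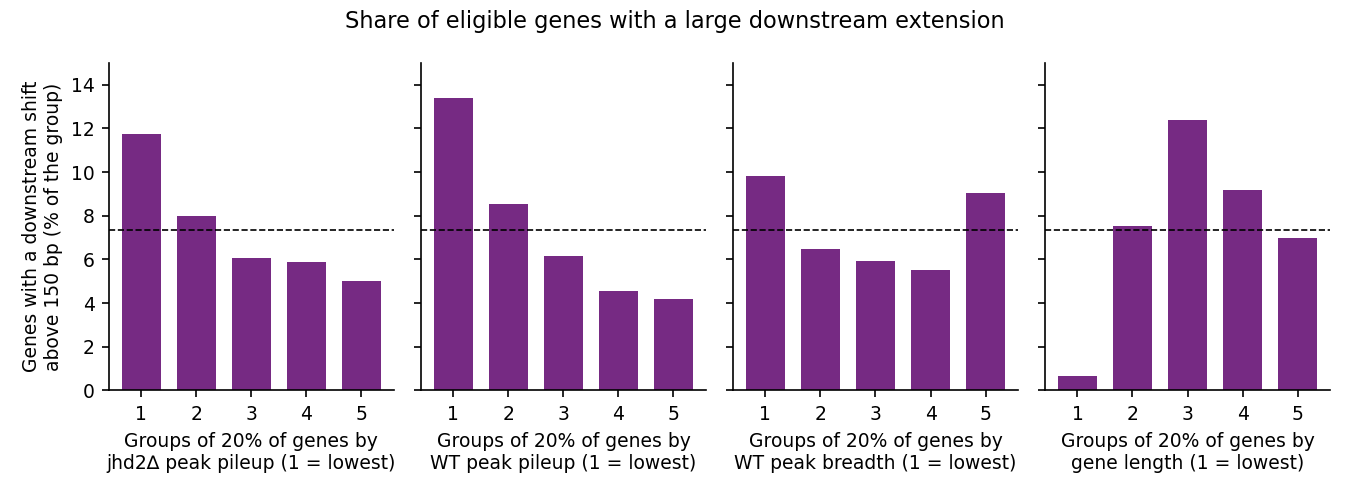
Percent of eligible genes with a downstream shift above 150 bp (vertical axis) in groups of 20% of genes ordered by *jhd2∆* pileup, WT pileup, WT breadth and gene length (horizontal axes, 1 = lowest), with the 7.36% of all eligible genes as a dashed line. The share falls across the groups of pileup in both libraries, is highest at both ends for breadth, and is 0.668% in the shortest genes.

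The part of the gene that the peak covered is set in part by the selection, which used the downstream edge in both libraries, so it is given as a description only. Breadth was a median of 66.6% of gene length in *jhd2∆* and 47.4% in WT at the selected genes, against 57.7% in *jhd2∆* and 55.8% in WT at the other eligible genes. The peak was broader than the gene is long at 34 of the 332 genes in *jhd2∆* and at 4 in WT. Over all eligible genes these numbers were 921 in *jhd2∆* and 894 in WT.

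By position, the selected genes were found on all 16 chromosomes. Their share ran from 2 of 89 eligible genes on chromosome VI (2.25%) to 9 of 64 on chromosome I (14.1%). Nothing is read from these extremes, which rest on few genes. Of the 36 genes with a shift above 400 bp, 9 lay on chromosome IV, 8 on chromosome VII and 8 on chromosome XIV, which hold 13.4%, 8.96% and 7.01% of the eligible genes. By the order of protein-coding genes in R64 the next gene downstream lay on the opposite strand at 159 of 327 selected genes (48.6%) and at 53.1% of all eligible genes. The next gene upstream was divergent at 175 of 330 (53.0%) and at 48.1% of all eligible genes. A selected gene lay next to another in 16 pairs, of which 8 were divergent, 4 tandem and 4 convergent. All 3468 adjacent pairs of eligible genes comprised 853 divergent, 1706 tandem and 909 convergent pairs, and nothing is read from so few pairs of selected genes. One divergent pair was *MET4* with *LEU4*, an isopropylmalate synthase of leucine synthesis. Their peaks were extended away from each other, by 514 bp at *MET4* and by 314 bp at *LEU4*, where the peak covered 1350 bp in *jhd2∆* and 1099 bp in WT. *CIA1* and *MSW1* formed another such pair, with 198 and 889 bp.

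By function, 88 of the 332 genes belonged to at least 1 of 24 lists of pathways and complexes, and 244 to none. The lists are described by counts beside the 7.36% of all eligible genes and the median shift of 29 bp, without a test, and they were compiled with earlier results of these data known. In 12 of the 24 lists the share of selected genes was above 7.36%.

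Glycolysis, gluconeogenesis and fermentation had the largest share, 7 of 24 eligible genes (29.2%). The selected enzymes were both phosphofructokinase subunits, the pyruvate kinase *CDC19*, the alcohol dehydrogenase *ADH5*, the phosphoglucose isomerase *PGI1*, *ENO1* and the hexokinase *HXK2*. *PFK2* had 1717 bp in *jhd2∆* and 1377 bp in WT, *PGI1* had 1383 bp in *jhd2∆* and 1163 bp in WT, and *CDC19* had 1297 bp in *jhd2∆* and 1112 bp in WT. The other enzymes of the list had shifts from -10 bp at *TDH3*, a glyceraldehyde-3-phosphate dehydrogenase, to 116 bp at *ALD5*, and the median of the list was 41 bp. The list's WT pileup lay at a median percentile of 84.9, above that of most genes.

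In the TCA and glyoxylate cycle 4 of 23 genes were selected, around a list median of only 19 bp. They were *LAT1*, the acetyltransferase subunit of pyruvate dehydrogenase (415 bp), *PYC2*, *CIT2* and *ICL1*, the isocitrate lyase of the glyoxylate cycle (180 bp). *IDP2* and *LPD1* stood at the other end, with -110 and -109 bp. Of the respiratory chain and ATP synthase, *ATP2* and *COR1* were selected out of 32 genes. The other 30 had shifts from -45 to 53 bp, and the list median was -2.5 bp, on genes with a median length of 512.5 bp.

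Amino acid biosynthesis counted 14 selected genes of 79 (17.7%), with a list median of 56 bp. They came from several pathways: *LEU4*, *ILV2* and *BAT1* of branched-chain amino acids, *ARG7*, *ARG1* and *ARG3* of arginine, *LYS9* and *LYS4* of lysine, *STR3*, *STR2* and *CYS3* of transsulfuration, *SER1* of serine, *ARO3* of aromatic amino acids and *ASN1* of asparagine. *SER1* had 938 bp in *jhd2∆* and 655 bp in WT, and *ILV2* had 1189 bp in *jhd2∆* and 989 bp in WT. *GLT1*, the glutamate synthase, had the lowest value of the list, -59 bp.

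Ribosome biogenesis counted 15 of 98 genes (15.3%), with a median of 55 bp. The downstream edge lay further in by any distance at 91 of the 98, and at 3494 of all 4508 eligible genes (77.5%). Besides *NOP19* (934 bp in *jhd2∆* and 523 bp in WT), the GTPase *NOG1* and *SRP40* had 244 and 226 bp, the rRNA methyltransferase *NOP1* and *NAN1* had 202 and 201 bp, and the other 10 had 151 to 178 bp. The list of cytosolic ribosomal protein genes also took in *RPP1* (75 bp), a gene of RNase P and not of the ribosome. That list held 0 selected genes of 133, with a median shift of 8 bp. Its median gene length was 809 bp and its median WT pileup percentile 91.9. Mitochondrial ribosomal proteins held 1 of 62, *MRPL3* (168 bp). Vacuolar sorting and secretory genes (0 of 66) and RNA polymerase II, Mediator and TFIID (0 of 44) held none.

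Cell wall and glucan synthesis counted 8 of 36 genes (22.2%), with the highest median of the 24 lists, 68.5 bp. *UTR2*, which links chitin to glucan, had 900 bp in *jhd2∆* and 564 bp in WT, and *GAS3*, *HSP150*, *SCW10*, *AGA1*, *CRH1*, *SCW4* and *MNN1* had shifts of 156 to 212 bp. Plasma membrane transporters counted 6 of 37 (16.2%): *STL1*, *HXT7*, *MEP3*, *MEP2*, the glucose sensor *RGT2* (238 bp) and the copper transporter *CTR1* (216 bp). *HXT6*, at -539 bp, belongs to the same list.

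Of the genes for H3K4 methylation itself, *SWD3*, a subunit of COMPASS, was selected, with 869 bp in *jhd2∆* and 678 bp in WT. The other 4 eligible genes of that list were *SPP1* (134 bp), *SWD1* (29 bp), *SDC1* (10 bp) and *SWD2* (-10 bp). *SET1*, the methyltransferase, has a peak only in the *jhd2∆* list and could not be compared. Among elongation factors *DST1*, the transcript cleavage factor TFIIS, stood apart with 474 bp and a peak of 1045 bp in *jhd2∆* and 623 bp in WT, and the other 22 genes of its list had -36 to 77 bp. Of other histone modifiers and chromatin remodellers, 4 of 58 were selected: *SAS2*, *SWI1* of the SWI/SNF complex (296 bp), *ECM5* (167 bp) and the deacetylase *HST3* (159 bp).

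**Figure D5:**
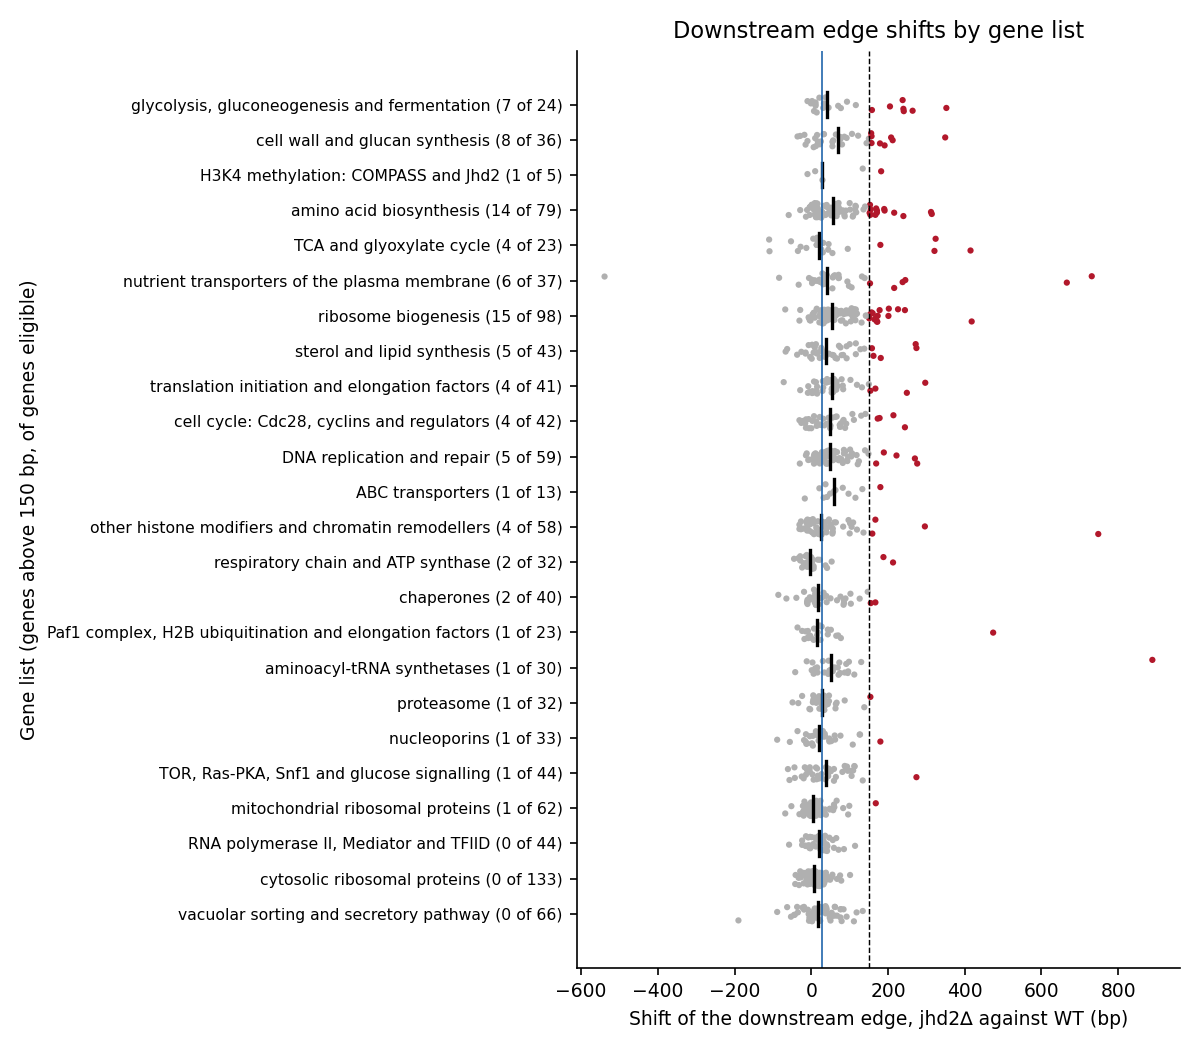
Downstream shift in *jhd2∆* relative to WT (horizontal axis, bp) of the eligible genes of 24 lists (vertical axis, with the number of genes above 150 bp of those eligible), 1 point per gene, red above the limit of 150 bp (dashed) and grey otherwise, with list medians as black bars and the median of all eligible genes, 29 bp, as a blue line. The list medians lie between -2.5 and 68.5 bp, below the limit, and the lists hold from 0 to 15 red points each.

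The remaining lists held 1 to 5 selected genes each. Sterol and lipid synthesis counted 5 of 43 (*SUR2*, *ERG11*, *ERG4*, *ELO2* and *ERG3*), translation factors 4 of 41 (*EFT1*, *EFT2*, the release factor *SUP45* and *TIF1*), cell cycle regulators 4 of 42 (*CLN2*, *FAR1*, *FKH1* and *CLN1*) and DNA replication and repair 5 of 59 (*PRI2*, *MCM3*, *MCM6*, *DPB2* and *ORC5*). The chaperones counted 2 of 40 (*SSA1* and *CCT6*). The ABC transporters (*YCF1*), aminoacyl-tRNA synthetases (*MSW1*), proteasome (*RPN13*), nucleoporins (*NUP57*) and nutrient signalling genes (*BCY1*, the inhibitory subunit of protein kinase A) held 1 each, of 13, 30, 32, 33 and 44 genes.

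Of the 7 genes with the opposite change, *HXT6* had the largest value. After it came *HPF1*, a cell wall mannoprotein, with 726 bp in *jhd2∆* and 1111 bp in WT (shift -295 bp), *NSG2* with 354 bp in *jhd2∆* and 619 bp in WT (shift -238 bp), and *HTA1*, a histone H2A gene, with 452 bp in *jhd2∆* and 688 bp in WT (shift -205 bp). *VPS25*, *ICY1* and *CAT2* followed with -190, -188 and -184 bp. Up to the next shared downstream peak, 2 of the 7 genes had more calls in *jhd2∆* than in WT, against 252 of 4489 eligible genes (5.61%), and 0 had fewer.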

How the data were processed

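H3K4me3 ChIP-Seq peaks of *jhd2∆* and WT were used, 1 library each. Per the labels and the methods, the authors aligned reads with Bowtie2 2.2.3 to an iGenomes yeast reference of unstated build and called peaks with MACS2 with broad calling off. They deposited peak positions and lengths in bp, and a pileup, a coverage signal whose scaling and control library are not given in the sources used here; normalization to pan-H3 is named in the design and cannot be seen in the lists. The lists hold no q-value, fold enrichment or read total, so depth per peak is unknown. Empty and repeated columns of the WT list were not used.

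Edge shifts were computed per gene with Python 3.11.15, numpy 2.4.6 and pandas 2.3.3 and tested on simulated lists. Percentiles are among the 4508 eligible genes, except in the alternatives below, where they were ranked anew among the genes kept. Symbols and gene order came from the RefSeq table of R64, which held 331 of the 332 genes; no coordinate was taken from it.

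The genes, lists and limits were chosen with earlier results of these data known. The text names the 20 largest shifts, the extremes of pileup, length and upstream shift, the genes around the limit, the 5 largest retractions and members of the lists. *ICY1* and *CAT2* beyond the 5 retractions, genes named as paralogues, in adjacent pairs or as unselected list members, and *AXL2* were chosen after their values were seen. Promoter motifs and sequences were not analysed here.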

Additional observations from a re-analysis of the deposited data

How the results depend on the processing

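A first set of 10 alternatives and 3 chosen after seeing the data gave 109 values, of which 90 stayed within the limits set for them (1.5 times for a count, the 95% Wilson interval of 6.64% to 8.16% for the percent of eligible genes, 1 SD over the 16 chromosomes for a median), and none changed sign. Not all of the 109 values could move. The alternative without genes whose *jhd2∆* peak overlaps more than 1 WT peak left out no gene, so its values repeated the main ones. The limit decided the size of the group. With 100 bp there were 704 genes (15.6%) with a median shift of 144 bp and a median difference in breadth of 133 bp. With 200 bp there were 161 genes (3.57%), with 276 and 271 bp, and with 300 bp 68 genes (1.51%), with 410 and 392.5 bp. Counted from the median shift of all eligible genes, an alternative chosen after seeing the data, there were 215 genes (4.77%), with 245 and 241 bp. These medians follow from the limit. Without the 20% of genes with the lowest WT pileup 209 genes remained (5.82%), and without the 20% with the lowest *jhd2∆* pileup 6.25% of eligible genes. The medians of the upstream shift and of the percentiles of WT pileup, WT breadth and gene length stayed within their limits in all alternatives run. Those limits were 3.89 bp for the upstream shift and 9.40, 13.7 and 10.2 points for the 3 percentiles in that order. They are wide, since a chromosome held from 2 to 42 selected genes. The share overlapping more than 1 WT peak was 0% over all 4508 eligible genes. It could therefore not move under another limit, a subset of these genes or a stricter overlap. Only the alternative that added genes with more than 1 peak, by their widest peak, could change it. There it was 0.595%, within its limit. The percentiles were ranked anew among the genes kept in each alternative, so their scale changed where genes were left out. Without the 20% of genes with the lowest WT pileup, the WT pileup percentile was 38.1 among 3590 genes. The main value was 31.6 among 4508 genes, so the 2 are not on the same scale. Leaving out near-identical genes, also chosen after seeing the data, moved no value past its limit.

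Alternatives on q-value or fold enrichment and on promoter motifs were not run, since the files used here hold neither those values nor sequences. No paired analysis was possible because 1 H3K4me3 library per genotype leaves nothing to pair. Depth, enrichment and genotype cannot be told apart with 1 library each. The edges were set by the calling within each library.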
